A study of Homo sapiens with 2 samples.

Results

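The 9 genes described here belong to 4 imprinted loci that make antisense or noncoding RNAs: KCNQ1, its overlapping lncRNA KCNQ1OT1 and the neighbour CDKN1C; H19, IGF2 and IGF2-AS; MEG3; and GNAS with GNAS-AS1. They were taken by symbol from 64081 gene rows, and all 9 had a row. The RNA came from LNCaP, an androgen-sensitive prostate carcinoma cell line, in a single condition: cells kept for 48 h in medium with 10% charcoal stripped serum and 10 mM HEPES, and therefore without androgen. Read pairs that keep the strand were sequenced from poly(A)+ RNA of 2 biological replicates, which the deposited table joins in 1 column of counts. No value below therefore has a replicate error; intervals are exact 95% intervals and cover counting error only, since molecules were not tagged and PCR copies count as pairs.

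In an imprinted locus, the copies inherited from the mother and from the father are used differently, and a stretch of DNA methylated in one germ line decides which copy is read. Long noncoding RNAs are a frequent part of this arrangement. KCNQ1OT1 is an unspliced RNA that starts inside KCNQ1 on the other strand and is known to silence neighbours such as CDKN1C on its own chromosome. H19 and IGF2 share enhancers and are usually read from opposite parental copies, MEG3 is a maternally expressed lncRNA of the DLK1-DIO3 region, and GNAS-AS1 runs against the upstream promoters of GNAS.

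The strand of the counts sets how each value can be read. The study mapped these libraries under library type fr-secondstrand, whereas paired strand-specific data were counted with the reverse setting of htseq-count, so that a gene row collects the pairs that run against the gene. Low rows of abundant mRNAs went with this: ACTB had 4 pairs and TUBA1B, a tubulin gene, had 19, while TUBA1B-AS1 on the other strand had 28150. All 8 genes that every cell uses were listed, with 4 to 436 pairs, and 5 of them had at least 10 (62.5%, against 26.5% of all 55538 rows with a gene model). FTH1, the ferritin heavy chain, had 436 pairs and BEST1, whose exons lie opposite it, had 60938. In total, 9495309 pairs lay on gene rows, 6.39% of the uniquely placed pairs, and 93.5% were assigned to no gene. The 8 LNCaP marker genes, among them KLK3 and TMPRSS2, had between 8 and 105 pairs, which under these settings run against the genes and do not check the identity of the cells. Below, "listed" names the count of a row, and "own RNA" the transcript that the row is named after.

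Under these settings, the own RNA of a gene can be listed only under another gene whose exons lie opposite it. Most of the sequence of these genes has none in the gene models used. The 6259 XLOC rows have no position here and were not checked. KCNQ1OT1 has 92625 nt of exons, of which 121 nt (0.131%) lie opposite exons of another gene. For H19 and CDKN1C this length is 0 nt. It is 289 nt (1.24%) for MEG3, 177 nt (3.98%) for KCNQ1, 333 nt (4.66%) for IGF2 and 1163 nt (5.23%) for GNAS. Of the 9 genes, IGF2-AS and GNAS-AS1 have the highest shares, 453 nt (15.8%) in IGF2-AS and 1127 nt (30.8%) in GNAS-AS1. A count of 0 for H19, for example, therefore says nothing of H19 RNA.

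The sequences at which both strands carry exons are shown for MEG3 and GNAS, since a pair from one gene can be listed under the other only in such stretches. MEG3 faces the lncRNA ENSG00000258663 in 2 blocks on chromosome 14 of GRCh37, chr14:101300769-101300914 and chr14:101327221-101327363, which make up the whole of that lncRNA (289 nt). GNAS faces GNAS-AS1 over coding sequence near its 5′ end, of which the first 150 nt are printed (chr20:57415162-57415311). All are given 5′ to 3′ on the plus strand, that of MEG3 and GNAS, with CpG dinucleotides in capitals.
MEG3 block 1: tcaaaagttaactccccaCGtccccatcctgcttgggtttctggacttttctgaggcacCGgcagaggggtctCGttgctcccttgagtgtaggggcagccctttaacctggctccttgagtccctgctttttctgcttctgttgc
MEG3 block 2: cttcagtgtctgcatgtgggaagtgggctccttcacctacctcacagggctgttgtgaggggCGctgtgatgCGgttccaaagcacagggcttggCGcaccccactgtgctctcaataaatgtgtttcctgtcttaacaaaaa
GNAS coding sequence: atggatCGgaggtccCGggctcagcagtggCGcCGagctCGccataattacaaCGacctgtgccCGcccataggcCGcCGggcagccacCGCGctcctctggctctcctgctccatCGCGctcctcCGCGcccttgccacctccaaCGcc

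Listed counts were dominated by 1 of the 9 rows. KCNQ1OT1 had 14047 pairs (13816 to 14281), 99.1% of the 14176 pairs listed for all 9 genes, and the other 8 rows together had 129. Only 27 of 55538 rows with a gene model had a higher count. GNAS followed with 78 pairs and KCNQ1 with 32, then GNAS-AS1 with 8, MEG3 with 6, IGF2 with 4 and CDKN1C with 1. H19 and IGF2-AS were listed at 0, with an upper limit of 3.69 pairs. At least 10 pairs were listed for 3 of the 9 genes, whereas 26.5% of all 55538 rows reached that count. The median was 6 pairs for the 9 genes and 0 over all these rows.

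Per kb of exonic length, KCNQ1OT1 was again highest, and KCNQ1 came before GNAS. KCNQ1OT1 had 151.7 listed pairs per kb (149.2 to 154.2), KCNQ1 7.19 (4.92 to 10.2), GNAS 3.51 (2.77 to 4.38) and GNAS-AS1 2.19 (0.944 to 4.31). IGF2 had 0.560 per kb (0.153 to 1.43), CDKN1C 0.403 (0.0102 to 2.25) and MEG3 0.258 (0.0948 to 0.562). The intervals of GNAS and GNAS-AS1 overlapped, as did those of IGF2, CDKN1C and MEG3, so their order is not settled by counting. KCNQ1OT1 lay above every other row, and KCNQ1 above GNAS, by more than the counting intervals. The order of KCNQ1 and GNAS depended on the length used: with the longest transcript, GNAS had 10.7 pairs per kb and KCNQ1 9.93. Among rows with at least 1 pair, KCNQ1OT1 was at percentile 90.4 per kb, KCNQ1 at 52.4, GNAS at 40.1, GNAS-AS1 at 31.7, IGF2 at 12.0, CDKN1C at 8.63 and MEG3 at 4.77; the median of those rows was 6.27 pairs per kb.

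KCNQ1 encodes a voltage-gated potassium channel of heart and epithelia. On chromosome 11 of GRCh37 it occupies 2465884 to 2870335 on the plus strand, 404 kb with 4.45 kb of exons in 22 blocks. KCNQ1OT1 lies wholly inside that span on the minus strand, from 2618538 to 2721233, and 91.7 kb of it is 1 uninterrupted block. The block covers introns of KCNQ1 and a single internal exon of 121 nt, which is coding. Under the settings above, the 14047 pairs listed for KCNQ1OT1 were transcribed from the plus strand, that of KCNQ1, across a stretch that is intron but for this exon. At the mean density of the row, 121 nt would hold 18.4 pairs.

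The KCNQ1 row, which under the same settings collects pairs from the strand of KCNQ1OT1, had 32 pairs (21.9 to 45.2). KCNQ1OT1 thus took 99.8% of the pairs listed for both rows (exact binomial interval 99.7% to 99.8%), and the difference per kb was 21.1-fold. This does not compare the levels of the 2 RNAs, because the KCNQ1 row can hold KCNQ1OT1 RNA only within 121 nt. Other pairs of KCNQ1OT1 RNA would be among those assigned to no gene or on rows without a gene model. KCNQ1-AS1, a further lncRNA on the minus strand at the 3′ end of KCNQ1, was listed at 0.

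A high count on the noncoding row of an opposite-strand pair was common in these data. Of 3336 pairs of a lncRNA and a protein-coding gene with exons opposite each other and unequal counts, the lncRNA row was the higher one in 1954 (58.6%). Of the 3 pairs among the 9 genes it was the higher one in 1, KCNQ1OT1. In 2485 pairs with counts on both rows, the median log2 ratio of the lncRNA row to the coding row per kb was 3.70, and that of KCNQ1OT1 to KCNQ1 was 4.40, at percentile 55.9, so this ratio stood near the middle of such pairs. The ratio of GNAS-AS1 to GNAS, -0.68 on the log2 scale, was at percentile 16.6.

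KCNQ1OT1 was also set beside lncRNAs that lie opposite coding genes, as a description with no test. The first set held 109 lncRNAs, each with at least 1 nt but under 1% of its exonic length opposite exons of a coding gene. LncRNAs with no such stretch are not in it. Its median was 14 listed pairs, and KCNQ1OT1 ranked 1 by count and 10 per kb. The second set held 172 single-exon lncRNA genes that lie inside an intron of an opposite-strand coding gene. KCNQ1OT1 is not one of them, since its model has 3 exon blocks and 121 nt opposite a KCNQ1 exon. It had more pairs than any of them (their highest count was 4922) and was at percentile 93.0 per kb, where 12 were higher. The 172 genes are short, with a median of 0.560 kb and a maximum of 5.13 kb. The 12 that were higher per kb spanned 0.129 to 1.99 kb. KCNQ1OT1, with 92.6 kb of exons, was longer than all of the 172 genes, so the counts are not compared at like length.

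Among 283 lncRNA genes with at least 10 kb of exons, a set added once the counts were known, the median was 5 listed pairs and 0.292 per kb. KCNQ1OT1 had fewer pairs than PCBP1-AS1 (16795) and more than PCA3 (4107), a prostate lncRNA inside PRUNE2. By listed pairs per kb, 4 of these genes were higher, and KCNQ1OT1 was at percentile 98.4. The exons of PCBP1-AS1 lie opposite other exons over 4.15% of their length and those of PCA3 over 7.48%, against 0.131% for KCNQ1OT1. MEG3 is also in this set, with 6 pairs on 23.2 kb.

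CDKN1C encodes the cyclin-dependent kinase inhibitor p57 and lies on chromosome 11 from 2904443 to 2907005 on the minus strand, with no annotated gene opposite its exons. Its row held 1 pair (0.0253 to 5.57), from transcription against the gene under the settings above. With no exon opposite, its own RNA is not measured by any row with a gene model. Of 12 other genes of the KCNQ1 domain, 6 were listed at 0, among them PHLDA2, an imprinted regulator of placental growth, and the transcription factor gene ASCL2. At least 10 pairs were listed for 3 (25%, against 26.5% of all rows, of which 28821 of 55538 were at 0): SLC22A18AS with 230, the transporter gene SLC22A18 with 41 and NAP1L4, a histone chaperone gene, with 22. SLC22A18AS and SLC22A18 share 227 nt of exons on opposite strands, and SLC22A18AS held 84.9% of their pairs (80.0% to 88.9%). For comparison with CDKN1C, CDKN1A, the p21 gene of the same family, had 1 listed pair, and CDKN1B, the p27 gene, had 6. CDKN2B, with 159 and no exon opposite its own, was the highest of 6 cyclin-dependent kinase inhibitor genes, these included and CDKN1C not, of which 3 reached 10 pairs (50%, against 26.5% of all rows).

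H19, a lncRNA that hosts a microRNA, lies on chromosome 11 from 2016396 to 2025782 and was listed at 0. IGF2, the gene of a fetal growth factor, lies on the same strand from 2150342 to 2179621 and was listed with 4 pairs (1.09 to 10.2). IGF2-AS, on the plus strand from 2161731 to 2169896, was listed at 0, and 333 nt of its exons face IGF2. With 4 pairs in all, the share of IGF2-AS was 0% with an upper limit of 60.2%, so no difference between the strands was detectable at this depth. IGF2 also shares exons on its own strand with INS-IGF2 (1460 nt) and the lncRNA ENSG00000240801 (373 nt), both listed at 0. In such stretches a pair cannot be given to 1 gene. ENSG00000284779 shares 2711 nt but has no row, so its exons may not have entered the counting.

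Of 7 other genes of this neighbourhood with a row, 4 were at 0 and 3, MRPL23, LSP1 and TNNT3, had 1 pair each; their median of 0 was that of all rows. Across 13 genes of the IGF axis, 5 reached 10 listed pairs (38.5%, against 26.5% of all rows). The receptor gene IGF2R, which clears IGF2, had 30 pairs and the mRNA-binding protein gene IGF2BP3 had 25. IGF1R, the signalling receptor, had 8.

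MEG3 lies on chromosome 14 from 101245747 to 101327368 on the plus strand, with 50 annotated transcripts and 23.2 kb of exons. Its row had 6 pairs (2.2 to 13.1), and ENSG00000258663, which faces it in the printed blocks, had 1. MIR770, a microRNA gene contained in a MEG3 exon on the same strand, was listed at 0. All 98 nt of MIR770 are shared with MEG3, so that pairs there are ambiguous by construction. Of 6 further genes of the region, 0 reached 10 pairs (against 26.5% of all rows) and 5 were listed at 0, including DLK1, a Notch-like ligand, and DIO3, which inactivates thyroid hormone. RTL1, a retrotransposon-derived gene, had 1 pair, and 35.7% of its exons lie opposite other exons.

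For H19 and MEG3 the reference sequence around a RefSeq start is printed, since these are the noncoding members that RefSeq's windows on GRCh38.p14 cover. Of the 9 genes, 3 matched: H19, MEG3 and GNAS. A gene can have several such starts. The printed ones were not matched to the ends of the gene models given above, which are on GRCh37. Each window holds 300 bases, from 250 before to 50 after the start, 5′ to 3′ on the strand of the gene and with CpG in capitals: chr11:2001217-2001516, minus strand, for H19 and chr14:100825858-100826157, plus strand, for MEG3. Beneath them are the mature microRNAs made from H19 (chr11:1996800-1996822, minus strand) and from the MEG3 exon (chr14:100852409-100852431, plus strand), with the seed (bases 2 to 8) in capitals.
H19 start: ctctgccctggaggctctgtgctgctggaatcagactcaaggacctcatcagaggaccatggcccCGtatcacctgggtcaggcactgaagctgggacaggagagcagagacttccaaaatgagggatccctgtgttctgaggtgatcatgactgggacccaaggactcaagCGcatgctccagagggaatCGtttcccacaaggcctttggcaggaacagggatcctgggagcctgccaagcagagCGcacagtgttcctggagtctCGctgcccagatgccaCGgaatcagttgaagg
MEG3 start: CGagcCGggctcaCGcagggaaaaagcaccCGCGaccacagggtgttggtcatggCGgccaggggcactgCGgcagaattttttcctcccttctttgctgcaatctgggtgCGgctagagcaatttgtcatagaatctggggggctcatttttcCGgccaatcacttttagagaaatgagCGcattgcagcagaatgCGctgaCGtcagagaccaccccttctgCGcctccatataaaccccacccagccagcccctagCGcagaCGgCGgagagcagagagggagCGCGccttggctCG
hsa-miR-675-5p: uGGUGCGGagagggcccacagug
hsa-miR-770-5p: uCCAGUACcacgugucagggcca

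The H19 window holds 6 CpG dinucleotides, below the median of 14 in 35116 such windows (percentile 35.2), and the printed MEG3 window 19 (percentile 58.0). Windows 2 and 3 of MEG3, not printed, hold 17 and 18 (percentiles 54.8 and 56.3). The CpG dinucleotide, written CG and read alike on both strands, occurs in 96.0% of the windows. GNAS has 6 windows with 10 to 43 CpG, and the one with 43 was at percentile 95.4.

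GNAS encodes the alpha subunit of the stimulatory G protein and, from upstream promoters, the proteins XLas and NESP55. It lies on chromosome 20 from 57414773 to 57486247 on the plus strand and had 78 listed pairs (61.7 to 97.3). GNAS-AS1, on the minus strand from 57393973 to 57425958, had 8 (3.45 to 15.8). The share of GNAS-AS1 was 9.30% of the 86 pairs (4.10% to 17.5%). Per kb of exonic length it was 38.4%, since GNAS has 22.2 kb of annotated exons in 77 transcripts and GNAS-AS1 has 3.66 kb; the direction was the same. Under the settings above, the 78 pairs came from the strand of GNAS-AS1 and the 8 pairs from the strand of GNAS. Only 1127 nt of exons face each other, so neither row measures the level of the other gene.

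The GNAS neighbours were listed higher than those of the other loci: 4 of 5 reached 10 pairs (80%, against 26.5% of all rows), with a median of 67 against 0.5, 0 and 0 for the KCNQ1, H19-IGF2 and DLK1-DIO3 neighbours, led by NELFCD with 281, a gene of the negative elongation factor. It faces the cathepsin gene CTSZ, with 67 pairs, over 6136 nt of exons. TUBB1, a tubulin gene of platelets, had 90 and faces ATP5F1E over 1180 nt. Of 14 other G protein, adenylyl cyclase and protein kinase A genes, 8 reached 10 pairs (57.1%, against 26.5% of all rows), and the highest were GNAL, the olfactory relative of GNAS, with 1046 and ADCY3, an adenylyl cyclase, with 626. Exons of other genes lie opposite 29.1% of the exons of GNAL and 24.4% of those of ADCY3, and none of those of ADCY9, which had 140 pairs.

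Imprinted genes outside the 9 were counted in the same way. Of 32 in the list, which includes some of the neighbours above, 31 had a row; 11 were at 0, 9 had 1 to 9 pairs and 11 reached 10 pairs, with a median of 2. The share with at least 10 pairs was 35.5%, against 26.5% of all rows, whose median was 0. NPAP1, a testis-enriched gene of the Prader-Willi region, was highest with 367 pairs and no exon opposite its own, then NNAT, the neuronatin gene, with 212 and AIRN, the lncRNA opposite IGF2R, with 133. KCNQ1OT1 had more pairs than these 31 rows, and NNAT was near it per kb, with 159.5 (138.8 to 182.5), an interval that includes the value of KCNQ1OT1.

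Overlapping genes on opposite strands among these imprinted genes were set beside KCNQ1OT1 and KCNQ1. In 28 such pairs with a row for both genes, entered under 17 of the genes, the entered gene was listed higher in 12, its partner in 13, and 3 were equal. Where both genes are in the list, as for AIRN with IGF2R and BLCAP with NNAT, the pair was entered once, under the first name by alphabet. For such pairs the split between gene and partner has no meaning. Of the 12, 7 were RTL1, with 1 pair, beside rows at 0. The following were chosen after the counts were seen. AIRN lies inside an intron of IGF2R and shares no exon with it; it held 81.6% (74.8% to 87.2%) of the pairs listed for both and had 30.4 pairs per kb. NNAT lies within BLCAP, which had 2 pairs, and held 99.1% (96.7% to 99.9%). NAP1L5, a retrogene inside HERC3, went the other way, with 54 pairs (0.680% of the sum, 0.512% to 0.887%) against 7882. UBE3A, a ubiquitin ligase gene, had 4 pairs against 396 for the lncRNA SNHG14, and DIRAS3 had 15 against 79 for GNG12-AS1. MEST had 81 pairs, against 0 for MESTIT1, 85 for COPG2 and 223 for ENSG00000270823. The direction thus differed between these pairs.

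Of 12 genes with a row that keep or read imprints, 5 reached 10 pairs (41.7%, against 26.5% of all rows), with a median of 4.5. SETDB1, a histone methyltransferase, had 205, and 948 nt of its exons lie opposite CERS2, a ceramide synthase gene. ZNF445, a zinc finger protein that protects imprints, had 33, TET2, which oxidises methylated cytosine, 20, and the maintenance methyltransferase gene DNMT1 18. CTCF, whose protein is an insulator at the H19 and IGF2 locus, and ZFP57 were listed at 0. As for the 9 genes, these are counts from the strand opposite to each gene under the settings above and not levels of its mRNA.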

How the data were processed

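The data are RNA-seq counts of LNCaP cells without androgen. Per the paper's methods and the submitters' processing notes, Trimmomatic 0.30 trimmed the reads, TopHat2 2.0.12 with Bowtie2 2.2.3 placed them on hg19, and HTSeq 0.6.1p1 counted them. The authors deposited raw counts of read pairs per gene, not normalized, with both replicates in 1 column, so replicate error, comparisons between replicates and tests were not possible. The design assumed that a column per replicate might exist.

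Ensembl identifiers were matched without version to GENCODE models on GRCh37 (55538 of 57820). These models are newer than those used for counting, so exonic lengths (union of exons) may differ. The 6259 XLOC rows, with 26.0% of the pairs, have no position here, and whether any overlaps a gene described was not tested. Counts have exact Poisson and shares exact binomial (Clopper-Pearson) intervals at 95%. The number of pairs sets the precision, and rows with at least 1 pair had a median of 13. Percentiles count ties as their middle. Scripts were tested on simulated data.

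The genes and lists were chosen with earlier results of these data known. Named were the 9 genes, genes whose exons overlap theirs, the highest of each list and genes at 0. Of the overlapping genes, MIR493HG (same strand as MEG3) and ENSG00000225806 (opposite GNAS), both listed at 0, are not described above. Other named genes are stated in the text or were added after their values were seen (PCA3, PCBP1-AS1, HERC3, SNHG14, GNG12-AS1, COPG2, ENSG00000270823, CERS2, ATP5F1E and the lower genes of lists). Alternatives were the measure of length, the set for percentiles and the minimum of 10 counts. Some results are not reported here. Sequences are from GRCh37 and from RefSeq tables on GRCh38.p14. Python 3.11.15, numpy 2.4.6, pandas 2.3.3, scipy 1.17.1 and matplotlib 3.10.9 were used.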

Additional observations from a re-analysis of the deposited data

How the results depend on the processing

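Of 39 alternative values, 22 stayed within the counting interval of the reported value or, for counts of genes, within 1.5 times. Per kb of exonic length, with or without exons shared on the same strand, the share of KCNQ1OT1 was 95.5% and that of GNAS-AS1 38.4%. Both moved out of the counting interval of the listed share and toward equal shares, and the row with more listed pairs stayed the higher one. For GNAS and GNAS-AS1 per kb, which row is higher is not settled by counting. With the longest transcript as length, GNAS had 10.7 pairs per kb and passed KCNQ1 (9.93). Among rows with at least 10 pairs, KCNQ1OT1 was at percentile 82.7, KCNQ1 at 29.6 and GNAS at 15.5. Among all 55538 rows, of which 28821 are at 0, the percentiles were 95.4 for KCNQ1OT1, 77.1 for KCNQ1, 71.2 for GNAS, 67.1 for GNAS-AS1, 57.7 for IGF2, 56.0 for CDKN1C and 54.2 for MEG3. With a minimum of 5 pairs, 5 of the 9 genes passed, and the share of all rows at that minimum is not given here, so this count has no background to be read against. Beside lncRNA genes with at least 10 kb of exons, a set chosen once the data had been seen, KCNQ1OT1 was at percentile 98.4. No paired analysis was possible because both replicates share 1 column, and leaving out a replicate was not run for the same reason. Counts of 0 to 8, as in 6 of the 9 genes, have wide intervals; those of GNAS-AS1 and MEG3 per kb did not overlap.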
